A study of Mus musculus with 6 samples.

Results

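Immediate early genes and ERK feedback genes were followed in a mouse melanoma line with and without a guide against Ndufs4. The set was a fixed list of 37 genes, taken by symbol from the deposited table of 22535 gene rows. It held AP-1 subunits, EGR, NR4A and KLF transcription factors, other immediate early genes, and the Dusp, Sprouty, Spred and ETV genes that ERK signalling induces. All 37 symbols were found, each in 1 row. The cells were B16-BL6, an invasive subline of the B16 melanoma. One group of 3 libraries is labelled sgControl, which carries a control guide RNA, and the other group of 3 is labelled sgNDUFS4, which carries a guide against Ndufs4, a subunit gene of mitochondrial complex I. Both groups grew in DMEM with 10% serum, 1 mM sodium pyruvate and 1% of an antibiotic mix, and both were lysed at about 70% confluence. The guide sequence, the nuclease, and whether each line was a clone or a pool are not stated in the sources used. The series asked which transcriptional changes go with the immunogenicity of the complex I-deficient cells.

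Immediate early genes are transcribed within minutes of a signal, without new protein synthesis, and their mRNAs are short-lived. Growth factors and serum reach them through receptors, RAS, RAF, MEK and ERK, which phosphorylates factors that sit at serum response elements. Stress reaches them through the kinases JNK and p38. Many of the proteins they encode are transcription factors of the next wave, such as the dimers of Jun and Fos proteins called AP-1. A second group feeds back on the pathway: Dusp phosphatases remove the activating phosphates from MAP kinases, and Sprouty and Spred proteins restrain RAS and RAF. In pigment cells and melanoma the genes Dusp6, Spry2, Spry4, Etv4, Etv5 and Phlda1 are widely used as a readout of ERK output. Only mRNA was measured here, not phosphorylated kinases.

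Reads counted in genes numbered from 20090607 to 25947374 per library, and levels are in CPM, reads of a gene relative to that total. At these depths 3 reads, the floor used here, equalled 0.116 to 0.149 CPM, a limit from counting alone. Ndufs4 was at 54.3, 55.0 and 52.4 CPM in sgControl and at 15.0, 15.98 and 16.8 CPM in sgNDUFS4, so the targeted mRNA followed the labels. Pigment cell markers were high in every library: the 8 listed markers summed to between 15959 and 16471 CPM in sgControl and between 14999.6 and 16073 CPM in sgNDUFS4. The sum rests on the abundant Tyrp1, Pmel and Dct, and the single markers moved with the groups: 2 of the 8 rose and 5 fell. Tyr, which encodes tyrosinase, fell from 32.3 ± 1.57 to 3.10 ± 0.436 CPM, Mlana from 1015 ± 53.2 to 758 ± 9.97 CPM and Dct from 4129 ± 109 to 3331 ± 98.6 CPM, while Pmel rose from 4358 ± 84.4 to 5507 ± 265 CPM (SD, n = 3 each). The part of this change of pigment genes in the members' differences was not tested. Defining markers of T cells and endothelium (Cd3e, Pecam1 and Cdh5) were listed at 0 in all 6 libraries. Such a 0 was shared by 9022 of the 22535 gene rows. The sources do not give the counter or filters behind it, so a listed 0 alone does not show absence. Summed markers of fibroblasts lay between 41.8 and 44.1 CPM in sgControl and between 41.5 and 46.1 CPM in sgNDUFS4, with Dcn, Lum and Thy1 listed at 0 throughout. Of 7 fibroblast markers listed, 3 were expressed enough to be tested and 0 passed. Among them Pdgfra had means of 2.48 ± 0.224 CPM in sgControl and 3.58 ± 0.154 CPM in sgNDUFS4 (SD, n = 3 each). Summed immune markers lay between 7.95 and 14.3 CPM and between 5.09 and 13.98 CPM, so they overlapped between the groups, and the endothelial and epithelial markers lay between 1.17 and 6.27 CPM in sgControl and between 0.308 and 1.13 CPM in sgNDUFS4. Of 8 immune markers listed, 3 were tested, of which 0 rose and 1 fell. Cd68, a macrophage marker that other cells also express, fell from 4.84 ± 1.43 to 2.64 ± 1.34 CPM, and Cdh1 fell from 1.75 ± 0.530 to 0.647 ± 0.429 CPM (SD, n = 3 each). Cdh1 reached the mean of 1 CPM needed for the test only through sgControl, which fixed its direction. Krt8, a keratin of simple epithelia, had 88, 65 and 0 reads in sgControl and 0 in every sgNDUFS4 library. The part of such cells in the members' differences was not tested. The labels do not say that the replicates were separate cultures, so p-values rest on the spread among 6 libraries that may differ only technically. In bulk RNA, fewer cells that express a gene and less of its RNA per cell cannot be told apart.

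Of the 37 genes, 31 had a mean of at least 1 CPM and were tested, and 6 were below it. Of the 31 tested, 14 were higher in sgNDUFS4, 7 were lower and 10 did not pass, by limma on log2(CPM + 0.5), with p-values adjusted over all 11063 genes in the fit and called below 0.05. That is 67.7% of the members tested, against 52.0% of all genes. By direction, 45.2% of the members were higher against 31.8% of all genes, and 22.6% were lower against 20.3%. In 20 of the 31 members, or 64.5%, the groups did not overlap, against 57.2% of all genes. A change of at least 1.5-fold that also passed the test was seen in 10 members, or 32.3%, against 11.9% of all genes. At a limit of 2-fold it was seen in 1 of the 31 members and in 426 of the 11063 genes. The median log2 fold change was 0.04 over the members and 0.06 over all genes tested. As deposited, 61.1% of all calls were higher. With TMM scaling this share was 48.9%, and 12 members were higher and 8 lower.

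By class the calls fell as follows, where 31.8% of all genes tested were higher and 20.3% lower. In classes this small, 2 that rose of 5 or of 7 is near those shares. Of 5 AP-1 subunits tested, 3 rose and 0 fell. Of 6 tested EGR, NR4A and KLF factors, 4 rose and 1 fell. The 7 other immediate early genes were divided, with 2 that rose and 2 that fell. Of 5 Dusp genes tested, 3 rose and 1 fell, and of 5 Sprouty and Spred genes 2 rose and 0 fell. All 3 ETV factors fell. The plot of levels by library shows these classes side by side.

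**Figure D1:**
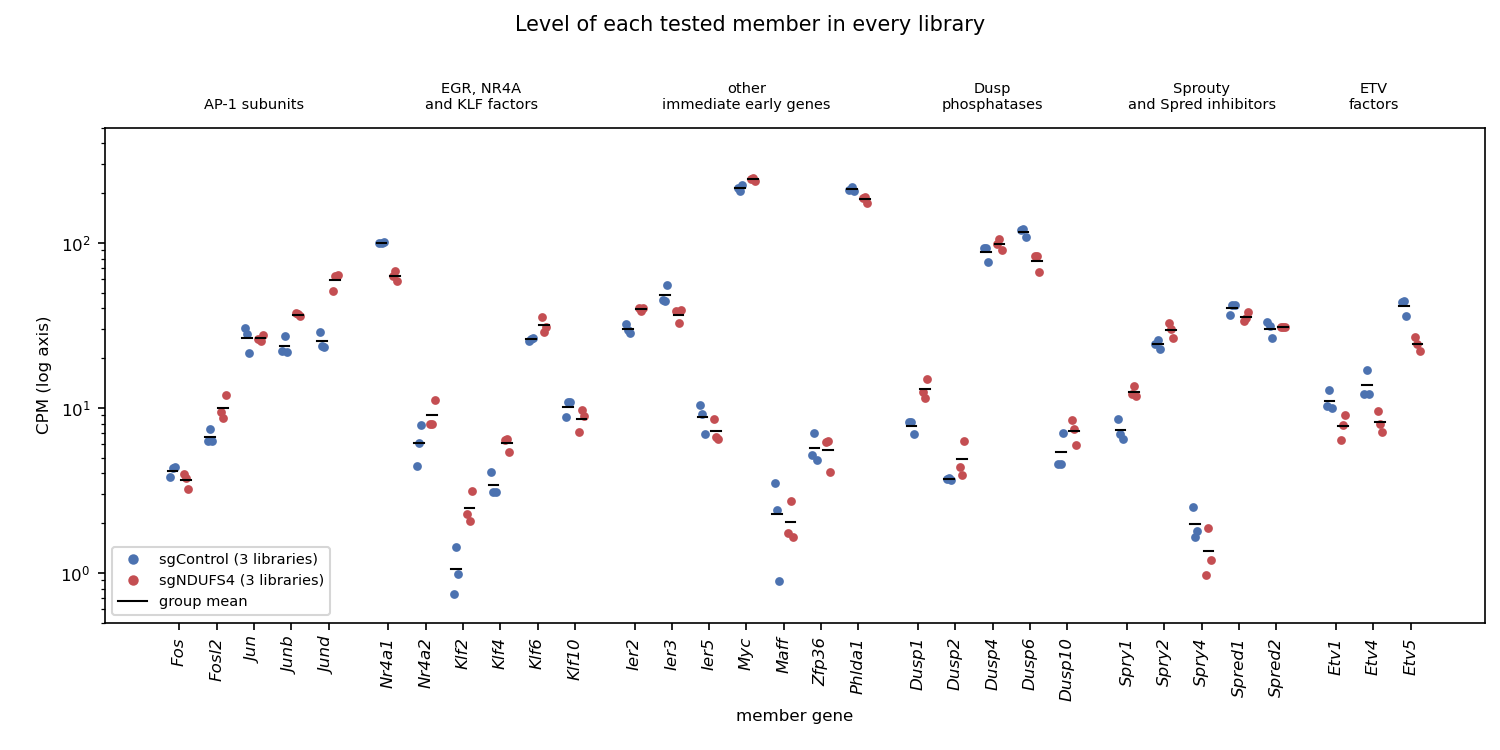
CPM of each tested member (log axis) in the 3 sgControl libraries (blue) and the 3 sgNDUFS4 libraries (red), with black bars at the group means, grouped by class. Jund and Junb sit higher in all 3 sgNDUFS4 libraries, and Nr4a1, Dusp6, Etv4 and Etv5 sit lower in all 3.

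Jund, which encodes an AP-1 subunit that is also made in resting cells, had the largest log2 fold change of the 31 members tested, on the log2(CPM + 0.5) scale. The ratio of group means was the same, 2.35, for the much lower Klf2. Jund was at 28.7, 23.7 and 23.3 CPM in sgControl and at 51.1, 63.2 and 64.2 CPM in sgNDUFS4. Every sgNDUFS4 library was above every sgControl library. Its mean went from 25.3 ± 3.00 to 59.5 ± 7.32 CPM (SD, n = 3 each), a ratio of 2.35 and a log2 fold change of 1.22 (SE 0.0859, adjusted p = 7.5e-12 by limma). Jund (chromosome 8, 70698949 to 70700616, plus strand, GRCm38) is short, and 877 of its 1668 exon bases lie opposite the antisense gene Gm11175. Strand was not kept, so reads of that gene and of Jund cannot be told apart.

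Junb encodes a Jun protein that is induced early and can act against c-Jun. It was at 22.1, 27.2 and 21.8 CPM in sgControl and at 37.4, 36.9 and 36.1 CPM in sgNDUFS4. The sgNDUFS4 libraries were close together and all above sgControl, with a log2 fold change of 0.63 (SE 0.0843, adjusted p = 6.7e-07 by limma). Its 50 nearest tested genes on chromosome 8 had a median log2 fold change of 0.17. After centring on them Junb was at 0.44 (limma adjusted p = 2e-04). The member Ier2 lies close by on chromosome 8 and had the same neighbour median. Of the 2301 exon bases of Junb, 173 are shared with Prdx2 on the opposite strand.

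Jun, which encodes c-Jun, did not pass the test. It was at 30.4, 28.0 and 21.5 CPM in sgControl and at 26.0, 25.4 and 27.7 CPM in sgNDUFS4. The sgNDUFS4 values lay inside the sgControl range, and the 95% interval of the log2 difference ran from -0.20 to 0.20 (limma adjusted p = 1). That interval does not reach the differences of Junb or Jund.

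Among the Fos partners, Fosl2, which encodes Fra-2, rose. It was at 6.32, 7.44 and 6.28 CPM in sgControl and at 9.37, 8.66 and 11.99 CPM in sgNDUFS4, with groups that did not overlap and a log2 fold change of 0.54 (SE 0.145, adjusted p = 0.0029 by limma). Fos itself was low, at 3.78, 4.31 and 4.35 CPM against 3.95, 3.76 and 3.24 CPM, and the groups overlapped (log2 fold change of -0.17, 95% interval -0.54 to 0.21). Fosb and Fosl1 were below the filter. Fosb had 8 reads in sgControl, all in 1 library, and 1 read in sgNDUFS4. Fosl1, which encodes Fra-1, had 23 reads in sgControl and 38 in sgNDUFS4, and 1163 of its 2033 exon bases are shared with Ccdc85b on the opposite strand.

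Levels of different genes can be compared only per length, so CPM was divided by the kilobases of annotated exon. The 7 AP-1 genes then summed to 38.7, 37.6 and 33.0 CPM per kilobase in sgControl and to 58.0, 64.6 and 65.7 CPM per kilobase in sgNDUFS4. The Jun genes summed to between 30.2 and 36.3 CPM per kilobase in sgControl and between 55.0 and 62.8 CPM per kilobase in sgNDUFS4. The Fos genes summed to between 2.42 and 2.77 and between 2.70 and 2.96 CPM per kilobase, ranges that overlap. The share of Jund in the AP-1 total was 41.6% ± 3.40 in sgControl and 56.7% ± 3.37 in sgNDUFS4, and that of Jun was 22.8% ± 2.09 and 13.2% ± 0.879 (SD, n = 3 each). The share of Junb was 28.3% ± 3.39 and 25.6% ± 2.18. Shares of 1 total depend on each other, and the level of Jun itself did not pass the test. Exon lengths are those of all annotated transcripts merged, which may be longer than the transcript in use.

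**Figure D2:**
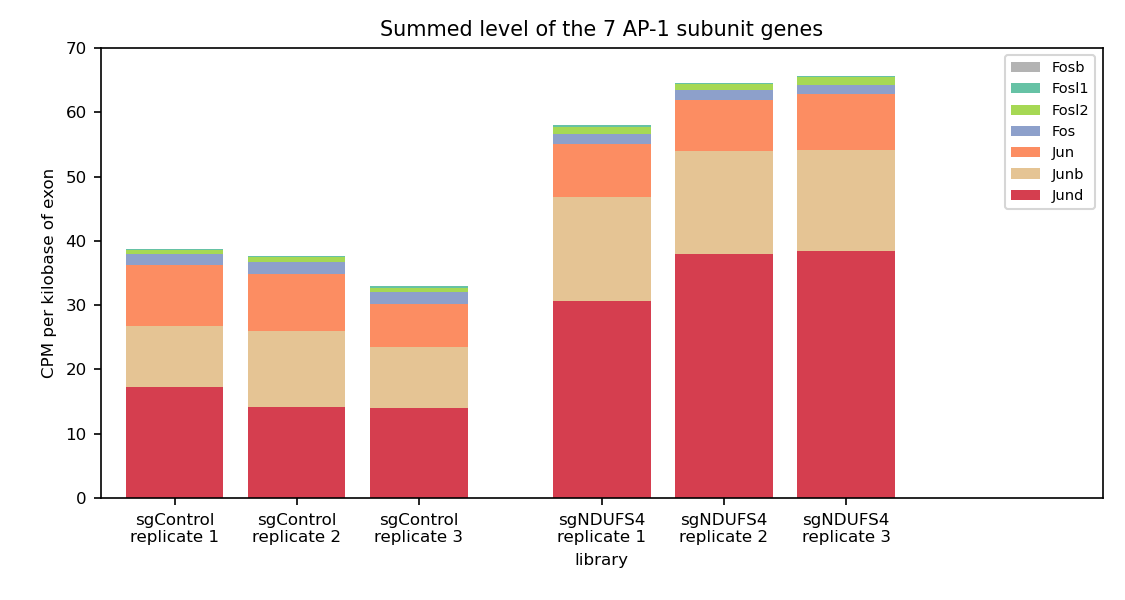
Summed level of the 7 AP-1 subunit genes in CPM per kilobase of annotated exon, 1 bar per library, stacked by gene. The bars reach between 33.0 and 38.7 in sgControl and between 58.0 and 65.7 in sgNDUFS4, and the Jund part goes from a mean of 15.1 to 35.7.

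The classical serum-induced EGR genes were almost silent. Egr1, a zinc-finger factor that ERK induces, was at 0.747, 0.592 and 0.718 CPM in sgControl and at 0.0387, 0.209 and 0.270 CPM in sgNDUFS4. These values stand for 15, 14 and 16 reads and for 1, 5 and 7 reads, so every sgNDUFS4 library was lower. Egr1 was below the filter. With no filter, limma gave a log2 fold change of -0.83 (adjusted p = 0.0028), on a scale where the pseudocount shrinks so low a gene, while edgeR on the recovered reads gave -2.02 (adjusted p = 0.075). Egr2 had 0 reads in sgControl and 10 in sgNDUFS4, and Egr3 was listed at 0 in all 6 libraries.

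The NR4A orphan nuclear receptors did not move together. Nr4a1, which encodes Nur77, was at 99.9, 99.7 and 101.5 CPM in sgControl and at 62.5, 67.9 and 58.8 CPM in sgNDUFS4. All 3 sgNDUFS4 libraries were lower, and the mean fell from 100.4 ± 0.988 to 63.1 ± 4.58 CPM (SD, n = 3 each), a log2 fold change of -0.67 (SE 0.0538, adjusted p = 1e-10 by limma). Nr4a2, which encodes Nurr1, was at 4.43, 6.13 and 7.86 CPM in sgControl and at 7.98, 7.99 and 11.2 CPM in sgNDUFS4. It rose by 0.54 on the log2 scale (SE 0.174, limma adjusted p = 0.011), but the gap between the groups was narrow. The call was lost without sgControl replicate 1 (log2 fold change of 0.34, adjusted p = 0.11) and without sgNDUFS4 replicate 3 (0.39, adjusted p = 0.10). Nr4a3, the third gene of the family and not a member of the set, rose from 7.89 ± 1.81 to 20.3 ± 1.62 CPM (SD, n = 3 each, log2 fold change of 1.33, limma adjusted p = 7.2e-09).

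Promoter letters are shown for genes of the set that moved in opposite directions. The windows are RefSeq's on GRCm38.p6, from 250 bases before to 50 bases after a start, and 27 of the 37 genes had at least 1. The motif searched with most matches was TGACG, the core of the cyclic AMP response element, on both strands (CGTCA on the other). It was in a window of 13 of the 27 genes (48.1%) and of 23.0% of all 27025 genes with a window. The whole element TGACGTCA, which contains that core, was in a window of 2 of the 27 (Dusp1 and Maff) and of 2.03% of all genes. The CArG box, the core of the serum response element, was in a window of 3 (Dusp5, Egr2 and Zfp36) and of 1.81% of all genes, and the AP-1 element TGANTCA was in 0 and in 8.97%. No match says only that the letters are not in these windows.

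The stretches below run 5′ to 3′ on the gene's strand and end at the base before the start, except that of Dusp1, which is the stretch around its 3 matches. Capitals mark matches to TGACG or TGACGTCA on either strand. They lie at chr15:101266596-101266845 (plus strand) for Nr4a1, chr2:57124004-57124253 (minus strand) for Nr4a2, chr17:26508573-26508672 (minus strand) for Dusp1, chr8:84978749-84978998 (minus strand) for Junb and chr10:99262981-99263230 (plus strand) for Dusp6. None of these bases is in an exon of GENCODE M21.
Nr4a1: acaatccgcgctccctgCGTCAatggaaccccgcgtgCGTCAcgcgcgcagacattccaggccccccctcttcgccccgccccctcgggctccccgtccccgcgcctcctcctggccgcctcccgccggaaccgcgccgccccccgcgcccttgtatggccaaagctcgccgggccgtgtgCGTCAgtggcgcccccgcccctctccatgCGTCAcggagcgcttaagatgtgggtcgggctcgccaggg
Nr4a2: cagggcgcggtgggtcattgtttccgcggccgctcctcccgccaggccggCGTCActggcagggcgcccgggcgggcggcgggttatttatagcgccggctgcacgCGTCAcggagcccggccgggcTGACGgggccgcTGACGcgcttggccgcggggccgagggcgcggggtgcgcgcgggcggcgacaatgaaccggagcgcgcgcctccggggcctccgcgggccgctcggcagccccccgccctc
Dusp1: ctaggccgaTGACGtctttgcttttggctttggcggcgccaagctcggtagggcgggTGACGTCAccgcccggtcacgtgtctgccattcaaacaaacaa
Junb: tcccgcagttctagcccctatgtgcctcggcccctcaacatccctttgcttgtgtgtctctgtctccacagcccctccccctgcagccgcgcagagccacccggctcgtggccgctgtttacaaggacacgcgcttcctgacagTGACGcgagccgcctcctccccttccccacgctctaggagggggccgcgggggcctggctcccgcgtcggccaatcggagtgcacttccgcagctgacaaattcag
Dusp6: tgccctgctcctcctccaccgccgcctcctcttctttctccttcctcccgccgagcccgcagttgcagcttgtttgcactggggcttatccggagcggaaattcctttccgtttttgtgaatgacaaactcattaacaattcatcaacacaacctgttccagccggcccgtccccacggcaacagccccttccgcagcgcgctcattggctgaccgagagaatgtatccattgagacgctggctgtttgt
Nr4a1, which fell, and Nr4a2, which rose, each hold 4 matches in the 250 bases before the start. Dusp1 and Junb, which rose, hold 3 and 1 there, and Dusp6, which fell, holds 0. A match is a description of the letters and not of a bound site.

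KLF genes encode zinc-finger factors, several of them induced early by serum or stress, and Klf2, Klf4 and Klf6 rose. Klf2 was at 0.747, 1.44 and 0.988 CPM in sgControl and at 2.29, 2.05 and 3.12 CPM in sgNDUFS4, and rose by 0.95 on the log2 scale (SE 0.260, adjusted p = 0.0035 by limma) on 71 and 189 reads. Klf4, a factor linked to growth arrest and pluripotency, was at 4.08, 3.09 and 3.10 CPM in sgControl and at 6.39, 6.44 and 5.43 CPM in sgNDUFS4, a rise of 0.75 on the log2 scale (SE 0.175, limma adjusted p = 0.00079). Neither gene's groups overlapped. Klf6 was the most abundant of the 4, at 25.2, 26.3 and 26.6 CPM against 35.6, 28.7 and 30.9 CPM, and rose by 0.28 (limma adjusted p = 0.0072). Its call was lost without sgNDUFS4 replicate 1 (0.19, adjusted p = 0.084). Klf10, a TGF-beta-induced factor, was at 8.86, 10.8 and 10.8 CPM against 7.09, 9.66 and 8.98 CPM and did not pass (limma adjusted p = 0.15).

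The most abundant members per length were Phlda1 and Myc. Phlda1, an ERK-induced pleckstrin homology protein, was at 95.9 CPM per kilobase in sgControl and 83.7 in sgNDUFS4. It was at 209.9, 217 and 207 CPM against 188, 190.4 and 175 CPM, so that it fell by a small step of 0.20 on the log2 scale (SE 0.0394, limma adjusted p = 0.00016). Myc, the growth-promoting transcription factor, was at 215, 207 and 224 CPM against 242, 248 and 238 CPM. Its rise of 0.17 on the log2 scale (SE 0.0373, limma adjusted p = 0.00034) was as small, and the groups did not overlap for either gene. The Myc value was 0.11 with TMM scaling, edgeR or DESeq2 (adjusted p between 0.012 and 0.014) and 0.28 after centring on its neighbours (adjusted p = 1.5e-05).

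Ier2 and Ier3 went opposite ways. Ier2, a nuclear protein of the early serum response, was at 32.0, 29.7 and 28.4 CPM in sgControl and at 40.5, 38.8 and 40.1 CPM in sgNDUFS4, a rise of 0.40 on the log2 scale (SE 0.0715, limma adjusted p = 4e-05). After centring on its neighbours, whose median was 0.17, Ier2 was at 0.21 (adjusted p = 0.016). Ier3, which prolongs ERK activity and limits cell death, was at 45.1, 44.4 and 55.8 CPM in sgControl and at 38.4, 32.5 and 39.2 CPM in sgNDUFS4, and fell by 0.39 (SE 0.0825, limma adjusted p = 0.00028). In both genes every sgNDUFS4 library lay on 1 side of every sgControl library. Ier5 (log2 fold change of -0.26), Maff (-0.02) and Zfp36 (-0.04), which encodes an mRNA-decay factor that limits early transcripts, did not pass. Maff had the widest spread, from 0.898 to 3.48 CPM within sgControl. Ier5 passed without sgControl replicate 3 (-0.42, adjusted p = 0.030).

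Dusp6 fell and Dusp1 rose. Dusp6, a cytoplasmic phosphatase selective for ERK, was at 119.6, 121 and 109 CPM in sgControl and at 82.7, 83.4 and 66.8 CPM in sgNDUFS4. All 3 sgNDUFS4 libraries were lower, and it fell by 0.59 on the log2 scale (SE 0.0639, limma adjusted p = 2.4e-08). Dusp1, a nuclear phosphatase that acts on p38, JNK and ERK and is induced by stress, was at 8.21, 8.24 and 6.91 CPM in sgControl and at 12.5, 11.5 and 15.0 CPM in sgNDUFS4. It rose by 0.70 on the log2 scale (SE 0.131, limma adjusted p = 7.5e-05), and the groups did not overlap. The 95% intervals of the 2 differences, -0.72 to -0.46 for Dusp6 and 0.43 to 0.97 for Dusp1, lie on opposite sides of 0.

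Dusp4, a nuclear ERK and JNK phosphatase, was at 92.7, 93.6 and 76.6 CPM in sgControl and at 98.4, 106 and 90.5 CPM in sgNDUFS4. The groups overlapped. The log2 fold change was 0.17, with an adjusted p of 0.032 by limma, and it did not pass under 9 of 17 other settings, among them those without sgControl replicate 3 (0.07, adjusted p = 0.30), sgNDUFS4 replicate 1 (0.16, adjusted p = 0.091) or sgNDUFS4 replicate 2 (0.11, adjusted p = 0.20). Per length, Dusp6 was above Dusp4 in sgControl (37.2 and 32.0 CPM per kilobase) and below it in sgNDUFS4 (24.8 and 35.8), an order that was not tested. Dusp10, selective for p38 and JNK, was at 4.58, 4.57 and 7.003 CPM against 8.48, 7.44 and 5.94 CPM. Its groups overlapped too, and its call (log2 fold change of 0.42, adjusted p = 0.047 by limma) was lost under 11 of 17 other settings. These include leaving out replicate 1 or 2 of either group, with values between 0.31 and 0.40 and adjusted p between 0.12 and 0.22. Dusp2 did not pass (0.33, limma adjusted p = 0.14), although its groups did not overlap. Dusp5, an ERK-induced nuclear phosphatase, was at the floor, with 11 reads in sgControl and 0 in sgNDUFS4.

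Sprouty proteins are ERK-induced inhibitors of receptor signalling, and Spry1 and Spry2 rose. Spry1 was at 8.61, 6.93 and 6.46 CPM in sgControl and at 12.2, 13.6 and 11.8 CPM in sgNDUFS4, a rise of 0.74 on the log2 scale (SE 0.133, limma adjusted p = 4.4e-05). The groups did not overlap. Its 50 nearest tested genes on chromosome 3 had a median log2 fold change of 0.39, and after centring on them Spry1 was at 0.34 (adjusted p = 0.041). Spry2 was at 24.5, 25.7 and 22.8 CPM against 32.7, 30.1 and 26.6 CPM, and rose by 0.28 (limma adjusted p = 0.0077). The median of its neighbours was 0.17, and after centring it was at 0.10 and did not pass (adjusted p = 0.35). It also did not pass without sgNDUFS4 replicate 1 (0.22, adjusted p = 0.072).

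Spry4, the Sprouty most often used as an ERK readout, was low and did not pass. It was at 2.49, 1.65 and 1.80 CPM against 0.968, 1.88 and 1.19 CPM, with overlapping groups and a 95% interval of the log2 difference from -0.98 to 0.10. Spred1, a membrane inhibitor of RAS that works with neurofibromin, was at 36.7, 42.0 and 42.0 CPM against 33.8, 34.9 and 38.3 CPM. It missed the threshold (log2 fold change of -0.17, adjusted p = 0.053 by limma) and passed it, as lower, under 8 of 17 other settings. Spred2 was at 33.0, 31.3 and 26.4 CPM against 30.9, 31.1 and 30.8 CPM (95% interval -0.13 to 0.21).

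The ETV factors, ETS-family proteins that carry ERK signals to target genes, fell together. Etv5 was at 43.5, 44.6 and 36.1 CPM in sgControl and at 26.8, 24.4 and 22.1 CPM in sgNDUFS4, and fell by 0.75 on the log2 scale (SE 0.0863, limma adjusted p = 6.7e-08). Etv4 was at 12.1, 17.04 and 12.2 CPM in sgControl and at 9.53, 7.95 and 7.17 CPM in sgNDUFS4, and fell by 0.70 (SE 0.140, limma adjusted p = 0.00015). Etv1 was at 10.3, 12.8 and 9.92 CPM in sgControl and at 6.39, 7.90 and 9.10 CPM in sgNDUFS4, and fell by 0.47 (SE 0.143, limma adjusted p = 0.0072). In all 3 genes the highest sgNDUFS4 library was below the lowest sgControl library, though for Etv1 by under 1 CPM. The Etv1 call was lost without sgControl replicate 2 (-0.36, adjusted p = 0.064) and without sgNDUFS4 replicate 1 (-0.35, adjusted p = 0.066). The median of the neighbours of Etv4 was 0.22, the opposite direction, and those of Etv1 and Etv5 were at -0.07 each.

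**Figure D3:**
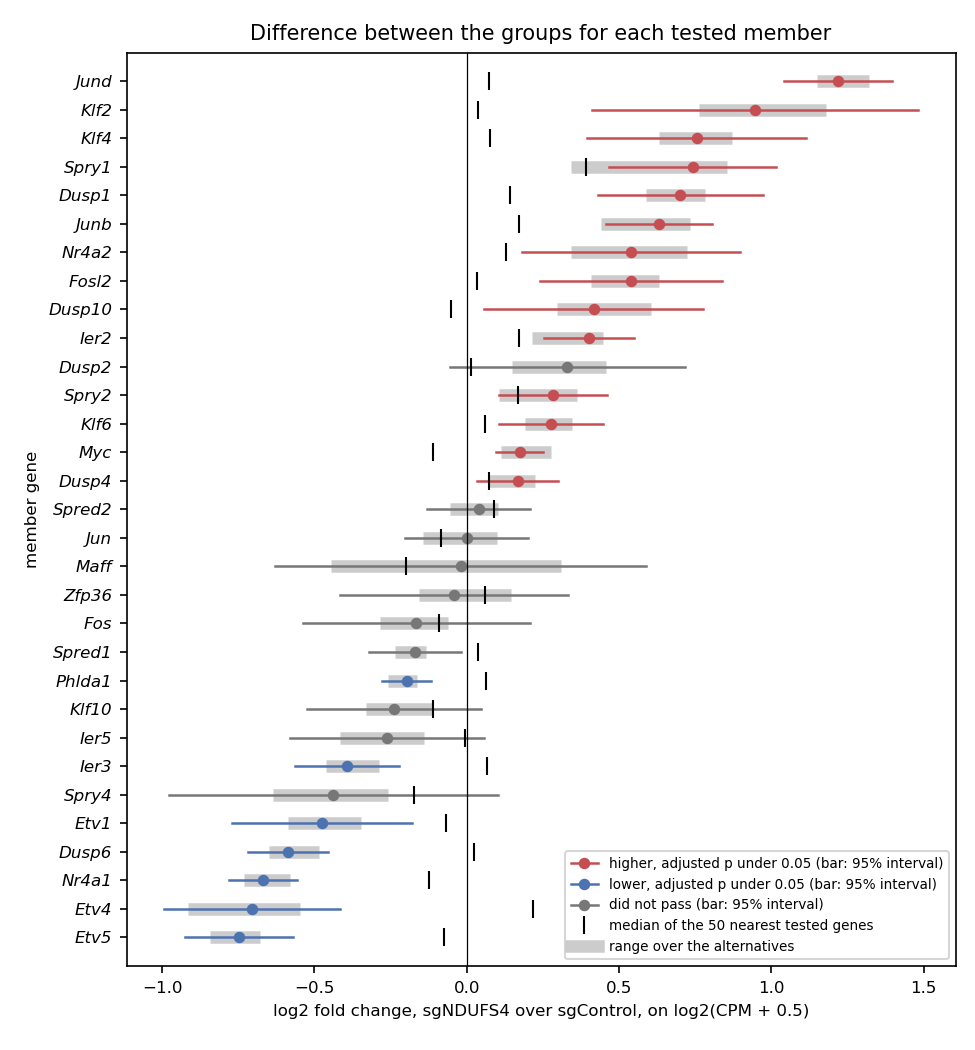
Log2 fold change of sgNDUFS4 over sgControl on the log2(CPM + 0.5) scale for the 31 members tested, with 95% intervals. Black ticks are the median of the 50 nearest tested genes on the chromosome, and grey bars span the values under the other settings. Jund is at 1.22 and Etv5 at -0.75, and the tick for Spry1 is at 0.39, on the same side as its value of 0.74.

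The counts of the further lists below stand beside shares over all genes of 31.8% higher and 20.3% lower. No list was tested against those shares. Further readouts of ERK signalling outside the set were also mixed. Of 11 tested, 2 rose and 2 fell, with a median log2 fold change of -0.02. Ccnd1, which encodes cyclin D1, fell from 121 ± 4.97 to 85.8 ± 6.55 CPM (SD, n = 3 each, limma adjusted p = 1.4e-08), and the ephrin receptor gene Epha4 fell from 3.88 ± 0.433 to 0.372 ± 0.516 CPM. Epha4 averaged under 1 CPM in sgNDUFS4 and passed the filter only through sgControl, so the filter fixed its direction. Plaur, the urokinase receptor, rose by 0.64 on the log2 scale and Epha2 by 0.58, and Hmga2 did not pass (-0.13). Of 24 immediate early genes outside the set in the fit, 10 rose and 3 fell (median 0.21). Besides Nr4a3, the matricellular gene Cyr61 rose from 58.8 ± 5.61 to 88.7 ± 2.23 CPM, the small GTPase gene Rhob from 43.5 ± 3.57 to 60.9 ± 1.49 CPM and the clock gene Per1 from 24.0 ± 2.07 to 34.6 ± 0.399 CPM (SD, n = 3 each). Atf3, a stress-induced factor, did not pass (2.16 ± 0.396 and 2.41 ± 1.21 CPM).

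Of 9 other bZIP genes tested that pair with AP-1 proteins, 2 rose, 3 fell and 4 did not pass. Batf and Batf3 fell by 0.94 and 0.82 on the log2 scale, Mafg and Jdp2 rose by 0.40 and 0.33, and Atf4 did not pass (-0.03). Of 6 other MAP kinase phosphatase genes tested, 2 rose, Dusp3 by 0.43 and Dusp16 by 0.41, and 0 fell. Dusp22 did not pass (0.15).

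Upstream of the set, receptors and ligands were counted too. The receptor list held growth factor receptors and also pigment cell receptors such as Gpr143 and Mc1r. Of its 14 genes tested, 8 rose and 2 fell, with a median log2 fold change of 0.46. Met, the receptor for hepatocyte growth factor, rose from 26.5 ± 1.05 to 60.8 ± 2.53 CPM, Kit, the receptor for stem cell factor, from 24.8 ± 2.07 to 48.0 ± 3.40 CPM and Fgfr3 from 10.9 ± 2.14 to 21.7 ± 0.937 CPM (SD, n = 3 each). The pigment cell receptor gene Gpr143 rose by 0.77 on the log2 scale, and Mc1r did not pass (-0.08). Of 20 ligand genes listed, only 6 were tested, and of these 4 rose and 1 fell. Tgfa, an EGF receptor ligand, rose from 1.29 ± 0.187 to 4.53 ± 1.31 CPM, while Egfr was listed at 0 in every library. Pdgfc rose from 0.0647 ± 0.0766 to 2.76 ± 0.850 CPM. It had 3, 0 and 1 reads in sgControl and passed the filter only through sgNDUFS4, so the filter fixed its direction. Pdgfa rose by 0.72 on the log2 scale, Hbegf fell by 0.60, and Vegfa did not pass (-0.05). Among ligands not tested, mean CPM was lower in sgNDUFS4 for Igf1 (0.467 to 0.0676) and Pdgfb (0.362 to 0.0526). It was higher for Fgf7 (0.245 to 1.72) and Kitl (0.231 to 1.37).

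In the core cascade from RAS to ERK, calls went both ways, with 9 genes higher and 6 lower. All 28 genes of this list entered the test. These counts lie near the shares over all genes, 31.8% higher and 20.3% lower, so they do not set the cascade apart. Its middle log2 fold change, 0.09, was likewise near the 0.06 of all genes. Map2k2, which encodes MEK2, fell from 307 ± 12.3 to 235 ± 7.44 CPM (SD, n = 3 each, log2 fold change of -0.38). Araf fell by 0.81 on the log2 scale, and the median of its neighbours on chromosome X was -0.74. Rasa1, a brake on RAS, and the adaptor gene Shc1 were higher by 0.74 and 0.48, where the medians of their neighbours on chromosomes 13 and 3 were 0.44 and 0.36. Braf did not pass (-0.01). Of the 16 ERK-regulated factors and kinases tested, 4 rose and 5 fell. Elk1, an ERK-activated partner of SRF, fell by 0.81 beside a neighbour median of -0.74, the ERK-activated kinase genes Rps6ka4 and Rps6ka2 fell by 0.41 and 0.71, Ets1 rose by 0.23, and Creb1 did not pass (-0.01). Srf, named after its values were seen, fell by 0.27 (limma adjusted p = 0.0029), with groups that overlapped.

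Of 17 JNK and p38 cascade genes tested, 4 rose and 3 fell (median -0.00). Mapkapk2, a p38-activated kinase, fell by 0.59 on the log2 scale and Mapk14, which encodes p38 alpha, by 0.28. Map3k1 rose by 1.09 beside a neighbour median of 0.49, Map3k4 rose by 0.31, and Mapk8 did not pass (0.19). Genes that SRF controls together with MRTF coactivators, and not with ERK-activated partners, gave 6 that rose and 3 that fell of 10 tested. Acta2, Cnn2 and Actg1 rose by 2.76, 0.93 and 0.47 on the log2 scale, Flna fell by 0.75 beside a neighbour median of -0.88, and Myl9 did not pass (-0.11).

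Heat shock genes, of which some respond to stress and handling as immediate early genes do, moved with the groups. Of 11 tested, 0 rose and 10 fell, with a median log2 fold change of -0.26. Hsp90aa1, Hspd1, Hspe1 and Hsp90ab1 fell by 0.40, 0.42, 0.34 and 0.18 on the log2 scale, and Dnajb1 did not pass (-0.00). Their summed level was between 19114 and 19257 CPM in sgControl and between 15945 and 16318 CPM in sgNDUFS4. Hspa1b, named after its values were seen, was at 100.3, 92.1 and 23.1 CPM in sgControl and between 19.0 and 20.0 CPM in sgNDUFS4, and Arc, likewise, was at 7.17, 5.41 and 1.71 CPM against between 1.59 and 1.81 CPM. In these 2 genes sgControl replicates 1 and 2 were high and replicate 3 lay near sgNDUFS4, the same libraries that held or lacked Krt8. Hspa1b has a near-identical copy, Hspa1a, so its counts are uncertain. The part of heat shock or handling in the members' differences was not tested.

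Members varied more between replicate libraries than most genes did. The SD of log2 values within groups had a median of 0.166 over the 31 members and 0.0884 over all genes tested, and 27 members were above the latter. Low genes varied more than high ones. Among genes with a mean of 10 CPM or more the medians were 0.127 for 17 members and 0.0732 for all genes, and below that they were 0.239 for 14 members and 0.212 for all genes. Myc, Ier2, Phlda1 and Nr4a1 had SDs of 0.0439, 0.0647, 0.0508 and 0.0738, below the median of all genes. Maff, at 0.593, had the widest of the members.

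**Figure D4:**
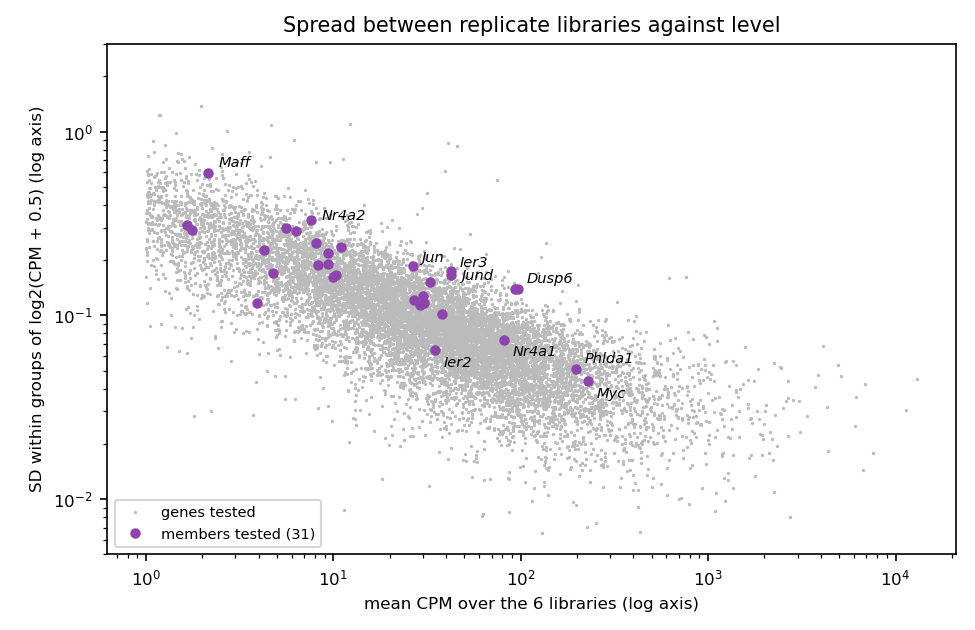
SD within groups of log2(CPM + 0.5) against mean CPM over the 6 libraries (both log axes) for all genes tested (grey) and the 31 members tested (purple). Most members lie in the upper part of the grey cloud at their level, Maff highest at 0.593, while Myc lies at 0.0439.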

How the data were processed

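Polyadenylated RNA of 6 libraries was sequenced in pairs without strand, per the labels' protocols. The submitters' processing notes name HISAT2 and GRCm38; for the counter, annotation and filters the sources used here give nothing. The authors deposited CPM, scaled to the reads counted in genes of each library. From 99.99% to 100% of values above 0 were whole multiples of the worth of 1 read (tolerance 0.01), which gave back read numbers.

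The main test was limma 3.58.1 (R 4.3.3) with a mean-variance trend on log2(CPM + 0.5), two-sided, over genes averaging 1 CPM or more, with Benjamini-Hochberg adjustment over all 11063 genes at a threshold of 0.05. Fold changes on this scale understate low genes. The script was tested on simulated data. The count test on the recovered reads, edgeR 4.0.16, called 5583 genes. The fit was repeated with other pseudocounts, filters, scalings and no trend, and with edgeR, DESeq2 1.42.0, a replicate block, centring on the 50 nearest expressed genes, and each library left out. Positions and exon lengths came from GENCODE M21, matched by symbol, and promoter windows from RefSeq.

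The members and lists were chosen with earlier results of these data known, and no list was tested as a set. Every member is reported. Of other lists the text names up to 4 genes with the smallest p-values and up to 1 that did not pass. Genes overlapping on the opposite strand cannot be told apart. The authors' own fold changes and p-values were not used here.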

Additional observations from a re-analysis of the deposited data

How the results depend on the processing

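No member changed direction in a call under any of 17 alternatives to the reported fit. Of the 21 members called, 15 passed in the same direction under every alternative in which they could be tested, and 6 (Nr4a2, Klf6, Dusp4, Dusp10, Spry2 and Etv1) did not. The number of members higher ranged from 10 to 14 and of members lower from 6 to 9, against 14 and 7 as reported. The number of all genes called ranged from 4813 to 5941, against 5755. The lowest number of members higher, 10, came without sgNDUFS4 replicate 1. The lowest number lower, 6, came there and without sgControl replicate 2. The 9 lower came with no filter, where Egr1 and Dusp5 entered. TMM scaling, edgeR and DESeq2 each gave 12 members higher and 8 lower, with Spred1 added to those lower.

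Same-numbered libraries had correlated deviations of 0.0559, 0.0121 and 0.0972, which does not show that the numbers pair the samples, and sgNDUFS4 replicate 2 correlated most with sgControl replicate 1 (0.0353). With the replicate block 5941 genes were called, and 14 members were higher and 8 lower, with Spred1 added (adjusted p = 0.037). Without sgControl or sgNDUFS4 libraries in turn, a group of 2 was left. Depth limits Egr1, Egr2, Egr3, Fosb, Fosl1 and Dusp5, which had at most 16 reads in any library.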
